A study of Mus musculus with 7 samples.

Results

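The miR-29 family was followed in small RNA libraries of mouse hepatocytes, as 7 of the 1966 mature miRNAs counted in each library. The members were taken by name: the 3 guide arms mmu-miR-29a-3p, mmu-miR-29b-3p and mmu-miR-29c-3p, and the 4 passenger arms mmu-miR-29a-5p, mmu-miR-29b-1-5p, mmu-miR-29b-2-5p and mmu-miR-29c-5p. The species prefix mmu is left out from here on. ALAS12-KO hepatocytes, in which ALAS1 and ALAS2 are mutant, gave 4 libraries and WT hepatocytes 3. The study asked whether ALAS, the 5-aminolevulinate synthase that starts heme synthesis, bears on small RNAs, and the series title names a role of ALAS1 in silencing that does not need heme. Both genotypes carry the treatment label TMX, which the labels do not spell out, and nothing in the labels names a driver of the deletion, an age, a sex or a strain. Hepatocytes were isolated from perfused livers by collagenase digestion and slow centrifugation, which enriches hepatocytes without removing all other liver cells. The labels do not say that each library came from its own mouse, so the p-values measure the spread between these libraries, which may be technical.

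A miRNA hairpin is cut into a short duplex, of which the guide arm is kept by an Argonaute protein and the passenger arm is mostly discarded. The guide finds its messenger RNAs chiefly through its seed, bases 2 to 8 from the 5′ end. The miR-29 guides are known repressors of collagens, elastin and other matrix proteins and of the DNA methyltransferases Dnmt3a and Dnmt3b. In liver they are made by hepatocytes and by the stellate cells that lay down scar collagen, and their fall in stellate cells is a known mark of fibrosis. miR-29b also carries a 3′ end motif known in human cells to send it to the nucleus.

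All 7 members were found in the RefSeq miRNA table (GRCm38.p6). The guides are shown because they share a seed and are hard to tell apart by sequence. The capitals mark the seed, which is the same in all 3.
miR-29a-3p: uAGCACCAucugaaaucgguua
miR-29b-3p: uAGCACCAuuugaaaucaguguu
miR-29c-3p: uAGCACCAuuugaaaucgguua
No other mature mouse miRNA in that table of 1679 names has this seed. Counted from 1 at the 5′ end, miR-29a-3p and miR-29c-3p differ at 1 of 22 positions (C10U). miR-29c-3p and miR-29b-3p differ at 3 of the 22 positions they share (G18A, U21G and A22U), and miR-29b-3p is 1 base longer, at 23 bases. How a read that fits more than 1 of them was counted is not given in the sources used here, so the split between miR-29a-3p and miR-29c-3p is the less certain one.

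The passenger arms have 4 different seeds, again in capitals.
miR-29a-5p: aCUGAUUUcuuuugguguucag
miR-29b-1-5p: gCUGGUUUcauauggugguuua
miR-29b-2-5p: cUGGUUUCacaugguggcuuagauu
miR-29c-5p: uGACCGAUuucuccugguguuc
The 2 miR-29b passengers run in step when the second is set 1 base later. They then match at 19 of 21 bases and differ at U11C and U19C, with positions counted along miR-29b-1-5p. The only other mature miRNA in the table with a seed of this passenger group is miR-6338, which has that of miR-29b-2-5p.

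The members come from 4 hairpins in 2 clusters. On chromosome 6, on the minus strand, Mir29a (31062660 to 31062747) and Mir29b-1 (31063023 to 31063093) lie 275 bases apart, and the annotation (GENCODE M21, GRCm38) gives no protein-coding gene there. Mir29b-1 overlaps the end of the noncoding Gm27019. On chromosome 1, on the plus strand, Mir29b-2 (195037040 to 195037120) and Mir29c (195037547 to 195037634) lie 426 bases apart in the last exon of the noncoding A330023F24Rik. They lie opposite an exon of Cd46, a complement regulator read from the minus strand, and whether the counting used strand is not given in the labels. Both miR-29b hairpins give the same guide, miR-29b-3p, so that only their passengers tell the 2 loci apart. These hairpins are shown for that reason, with both arms in capitals.
Mir29b-1: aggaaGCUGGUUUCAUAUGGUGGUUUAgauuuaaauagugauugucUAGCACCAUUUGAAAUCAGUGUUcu
Mir29b-2: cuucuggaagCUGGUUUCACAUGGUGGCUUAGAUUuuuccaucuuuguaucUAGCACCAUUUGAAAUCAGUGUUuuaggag

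The messenger RNAs were not measured in these libraries, and the sites in them are shown only to make the shared seed concrete. The complement of the seed, TGGTGCT, was searched for on the sense strand of the longest annotated 3′ UTR of each gene (GENCODE M21). It was present in 18 of 20 listed miR-29 targets, and in 13.1% of all 21020 genes with a 3′ UTR. The listed targets have longer 3′ UTRs, with a median of 1442 bases against 961 bases over all genes, which raises the chance of a match. They were listed as known targets and may have been found through such matches, so these shares are no test of targeting. The longer match TGGTGCTA, which adds the base opposite the first base of the guide, was present in 15 of the 20 and in 2.85% of all genes. Of the 8 collagen genes listed, 7 held TGGTGCT and 6 held TGGTGCTA, while Col1a2 held neither. A site in each of 3 matrix genes is given below with the match in capitals: Col1a1 (chr11:94952524-94952545, plus strand) and Col3a1 (chr1:45348968-45348989, plus strand), which encode the fibrillar collagens of scars, and Eln, which encodes elastin (chr5:134703736-134703757, minus strand).
Col1a1: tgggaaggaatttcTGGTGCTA
Col3a1: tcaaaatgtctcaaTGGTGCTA
Eln: gacctcatcaacgtTGGTGCTA

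The libraries held 10093244 to 17091539 miRNA reads in ALAS12-KO and 7719180 to 21962191 in WT. Levels are CPM, a miRNA's reads scaled to the same total of miRNA reads in every library, so that 10000 CPM is 1% of that total. A level of 1 CPM stood for 7.72 to 22.0 reads. The listed hepatocyte miRNAs, 7 of 7 detected and led by miR-122-5p, took 60.7% to 69.3% of miRNA reads in ALAS12-KO and 63.4% to 66.2% in WT. ALAS12-KO replicate 1 held the lowest summed level of the mesenchymal, endothelial, leukocyte, cholangiocyte and red cell miRNAs. Alas1 and Alas2 messenger RNAs are not counted in small RNA tables, so their loss could not serve as a check of the labels.

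The guide arms were among the most abundant miRNAs of these hepatocytes and together held 3.41% to 3.83% of miRNA reads in every library. Their summed level was 35016 ± 1014 CPM in ALAS12-KO (SD, n = 4) and 37219 ± 1181 CPM in WT (SD, n = 3). This was 3.41% to 3.63% of all miRNA reads in ALAS12-KO and 3.59% to 3.83% in WT, and the groups overlapped. By mean level, miR-29a-3p ranked 8, miR-29c-3p 12 and miR-29b-3p 22 among all 1966 miRNAs. Among the 43 miRNAs with a mean of at least 1000 CPM, the coefficient of variation over all 7 libraries was the fifth lowest for miR-29a-3p, at 3.96%. It was 5.51% for miR-29c-3p and 8.23% for miR-29b-3p, against a median of 9.13% for the 43. On TMM-scaled CPM these were 13.1%, 15.4% and 12.4%, against a median of 14.4%, and miR-29a-3p ranked 17 of the 43. The summed guides then ran from 30976 to 43919 in ALAS12-KO and from 31890 to 36862 in WT.

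miR-29a-3p, the most abundant member, had 18214, 19725, 18011 and 18744 CPM in ALAS12-KO replicates 1 to 4 and 19989, 19499 and 18988 CPM in WT replicates 1 to 3. Its groups overlapped, with ALAS12-KO replicate 2 inside the WT range and the other ALAS12-KO libraries below it. miR-29c-3p had 12397, 11515, 11255 and 10936 CPM in ALAS12-KO and 12602, 12465 and 11755 CPM in WT, and only ALAS12-KO replicate 1 reached into the WT range. miR-29b-3p, the guide that both clusters share, had 4806, 5022, 5018 and 4421 CPM in ALAS12-KO and 5688, 5469 and 5204 CPM in WT. All 4 ALAS12-KO libraries lay below all 3 WT libraries on this scale, where the groups did not overlap for 20.7% of the 450 miRNAs tested, lower in ALAS12-KO for 15.3% and higher for 5.33%.

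**Figure D1:**
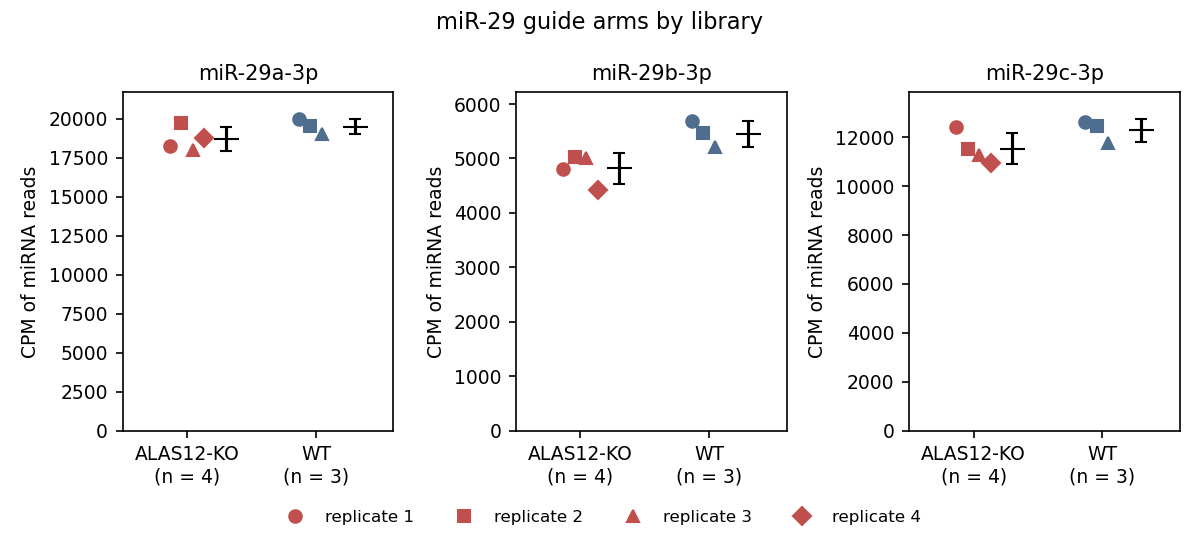
Level of the 3 guide arms in CPM of miRNA reads, by library (linear axes from 0). Each point is a library, marked by its replicate number (red, ALAS12-KO; blue, WT), and the bar beside each group is the mean ± SD; miR-29b-3p runs from 4421 to 5022 CPM in ALAS12-KO, below the 5204 to 5688 CPM of WT, while miR-29a-3p and miR-29c-3p overlap.

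The direction of the guides depended on how libraries were scaled. edgeR's quasi-likelihood test was run over the 450 miRNAs that passed the filter on low counts, all 7 members among them, with TMM factors, which scale libraries so that most miRNAs stay level. The median log2 fold change of the 450 was 0.06 with TMM and −0.12 with library totals, so each value is read against that shift. With TMM the log2 fold change of ALAS12-KO over WT was 0.13 ± 0.14 (SE) for miR-29a-3p, 0.11 ± 0.16 for miR-29c-3p and 0.01 ± 0.15 for miR-29b-3p. With library totals these were −0.06 ± 0.05, −0.09 ± 0.06 and −0.18 ± 0.07. None of the guides passed the adjusted threshold of 0.05 under either scaling, with Benjamini-Hochberg adjusted edgeR p-values of 0.626, 0.737 and 0.975 with TMM and 0.491, 0.433 and 0.213 with library totals. On TMM-scaled CPM the miR-29b-3p groups overlapped, at 4306 to 5960 in ALAS12-KO and 4616 to 5385 in WT.

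The balance among the guides does not depend on scaling. miR-29a-3p made up 51.4%, 54.4%, 52.5% and 55.0% of guide reads in ALAS12-KO replicates 1 to 4 and 52.2%, 52.1% and 52.8% in WT replicates 1 to 3. The WT values lay within the ALAS12-KO range. The means differed by 0.953 percentage points, with a two-sided exact permutation p of 0.371 over 35 arrangements. miR-29c-3p made up 32.9% ± 1.46 (SD, n = 4) in ALAS12-KO and 33.0% ± 0.303 (SD, n = 3) in WT, and miR-29b-3p 13.8% ± 0.693 and 14.6% ± 0.195. The SD of each share was larger in ALAS12-KO.

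The passenger arms were rare, and none passed the adjusted threshold. With TMM, 2 of the 4, miR-29b-1-5p and miR-29a-5p, were higher in ALAS12-KO at unadjusted edgeR p under 0.05, as were 10.2% of all 450 miRNAs. With library totals this held for miR-29b-1-5p alone, where 4.67% of the 450 were higher. The 4 passengers together stood at 81.5, 80.2, 112 and 102 CPM in ALAS12-KO replicates 1 to 4 and 84.5, 83.8 and 82.4 CPM in WT replicates 1 to 3. ALAS12-KO replicates 3 and 4 were above WT and replicates 1 and 2 just below it. On TMM-scaled CPM the sums did not overlap, at 91.2 to 101 in ALAS12-KO and 73.1 to 82.5 in WT. Of single miRNAs, 10.9% of the 450 lay wholly higher in ALAS12-KO on that scale. Without miR-29a-5p, the other 3 passengers summed to 62.1 ± 3.43 CPM in ALAS12-KO (SD, n = 4) and 61.4 ± 2.14 CPM in WT (SD, n = 3).

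miR-29b-1-5p, the passenger of the chromosome 6 copy of miR-29b, had 4.33, 5.25, 4.27 and 4.76 CPM in ALAS12-KO replicates 1 to 4, from 53 to 78 reads. In WT replicates 1 to 3 it had 3.62, 2.46 and 1.55 CPM, from 58, 54 and 12 reads. Every ALAS12-KO library was above every WT library, with either scaling, and WT replicate 1 was the nearest. Its log2 fold change was 1.02 ± 0.33 (SE) with TMM and 0.84 ± 0.29 with library totals, with edgeR adjusted p-values of 0.201 and 0.204, so it did not pass. Of the 450 miRNAs, 5.33% lay wholly higher in ALAS12-KO on CPM and 10.9% on TMM-scaled CPM. miR-29b-2-5p, the passenger of the chromosome 1 copy, had 3.64, 3.07, 4.27 and 3.66 CPM in ALAS12-KO and 3.93, 4.51 and 4.28 CPM in WT. Only ALAS12-KO replicate 3 reached into the WT range from below. Its log2 fold change was −0.04 ± 0.22 with TMM and −0.21 ± 0.20 with library totals (edgeR adjusted p of 0.949 and 0.589).

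miR-29a-5p, the other passenger of the chromosome 6 cluster, had 20.0, 22.5, 48.7 and 36.6 CPM in ALAS12-KO replicates 1 to 4 and 20.6, 23.8 and 22.0 CPM in WT replicates 1 to 3. Only ALAS12-KO replicates 3 and 4 stood above the WT range, replicate 2 lay within it, and replicate 1 just below it. On TMM-scaled CPM the groups did not overlap, at 24.8, 25.6, 44.0 and 35.7 in ALAS12-KO and 19.0, 23.4 and 19.5 in WT, since the TMM factors of ALAS12-KO replicates 1 and 2 were the lowest of the 7, at 0.806 and 0.879. Its log2 fold change was 0.66 ± 0.25 (SE) with TMM and 0.53 ± 0.33 with library totals, with edgeR adjusted p-values of 0.221 and 0.432. On TMM-scaled CPM, 10.9% of the 450 miRNAs lay wholly higher in ALAS12-KO. miR-29c-5p, the most abundant passenger, had 53.5, 49.3, 55.0 and 57.3 CPM in ALAS12-KO and 56.4, 53.1 and 54.5 CPM in WT. Its groups overlapped, and its log2 fold change was 0.16 ± 0.17 with TMM and −0.02 ± 0.13 with library totals (edgeR adjusted p of 0.599 and 0.944).

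**Figure D2:**
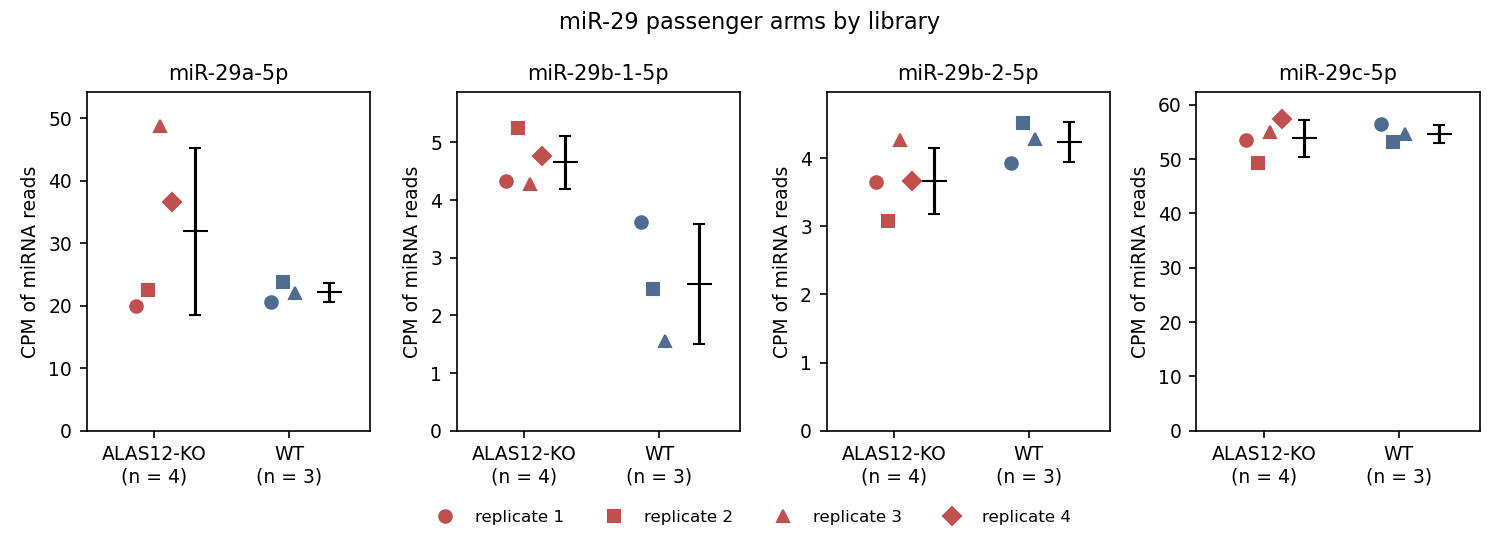
Level of the 4 passenger arms in CPM of miRNA reads, by library (linear axes from 0, each with its own range). Points are libraries (red, ALAS12-KO; blue, WT) with the mean ± SD beside each group; miR-29b-1-5p lies at 4.27 to 5.25 CPM in ALAS12-KO, above the 1.55 to 3.62 CPM of WT, and for miR-29a-5p only ALAS12-KO replicates 3 and 4 lie above WT.

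Over the whole family the edgeR test with TMM called 0 of 7 members, as it called 0 of all 450 miRNAs (0% of them). With library totals it called 0 of 7 members and 2 of the 450 (0.444%). At unadjusted p under 0.05 stood 2 of 7 members with TMM, miR-29b-1-5p and miR-29a-5p, both higher. Of all 450, 84 (18.7%) did, 10.2% higher and 8.44% lower. With library totals 2 of 7 did as well, miR-29b-1-5p, which was higher, and miR-29b-3p, which was lower. Under that scaling 77 of the 450 (17.1%) did, 4.67% higher and 12.4% lower. DESeq2 called 21 of the 450 (4.67%) and limma-voom 0, none of them a miR-29 member. The groups did not overlap for 2 of 7 members on TMM-scaled CPM, miR-29b-1-5p and miR-29a-5p, where 20.2% of the 450 did not, 10.9% higher and 9.33% lower. On CPM these were also 2 of 7, miR-29b-1-5p, which was higher, and miR-29b-3p, which was lower. On that scale the groups did not overlap for 20.7% of the 450, 5.33% higher and 15.3% lower. A positive log2 fold change was found for 6 of 7 members with TMM, where 56% of all 450 were positive, and for 2 of 7 with library totals, where 38.9% were. The median over the 7 was 0.13 with TMM and −0.06 with library totals.

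**Figure D3:**
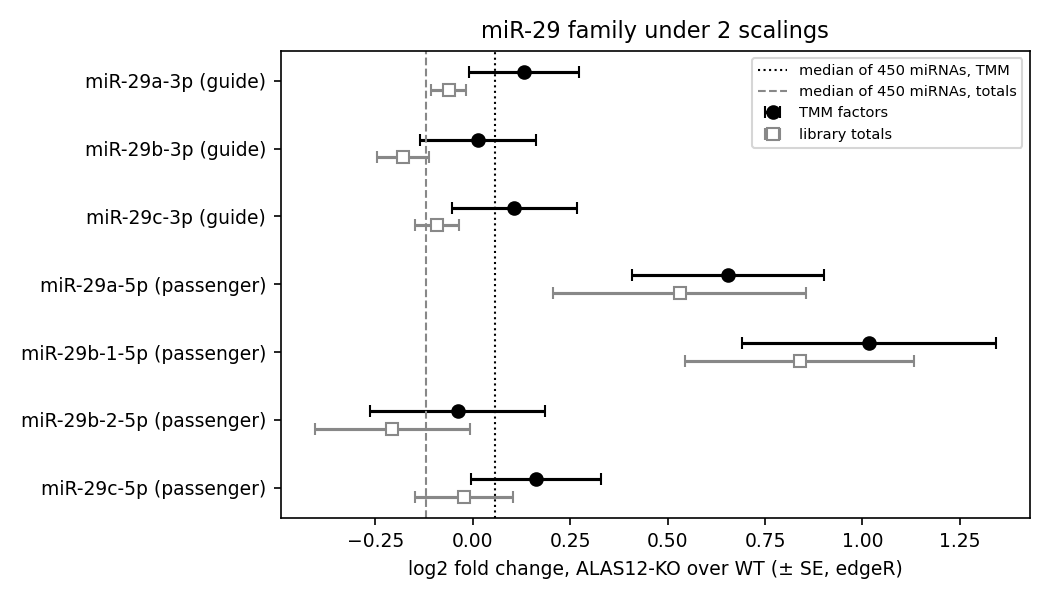
log2 fold change of ALAS12-KO over WT (± SE, edgeR quasi-likelihood fit over 450 miRNAs) for each member, guides above passengers, with TMM factors (filled) and library totals (open). Vertical lines mark the median of all 450 under each scaling (0.06 and −0.12); the 3 guides and miR-29c-5p change sign between the scalings, and miR-29b-1-5p lies highest under both, at 1.02 and 0.84.

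The ratio of passenger to guide within a library asks how completely 1 arm is kept, and needs no scaling. The family was strongly biased to its guides. Over all libraries there were 14.7 passenger reads per 10000 guide reads for miR-29a, 15.2 for miR-29b with its 2 passengers summed, and 45.9 for miR-29c. The median over the 145 arm pairs that passed the filter was 447 per 10000. Counted from the lowest passenger share, miR-29a ranked 13, miR-29b 14 and miR-29c 31 of the 145.

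miR-29b had 16.6, 16.6, 17.0 and 19.1 passenger reads per 10000 guide reads in ALAS12-KO replicates 1 to 4 and 13.3, 12.7 and 11.2 in WT replicates 1 to 3. Every ALAS12-KO library lay above every WT library. The log2 ratio was higher in ALAS12-KO by 0.48 ± 0.13 (SE), with a limma p of 0.00775 and an adjusted p of 0.281 over the 145 pairs, so it did not pass. Taken apart, the ratio of miR-29b-1-5p to miR-29b-3p was higher by 1.11 ± 0.25 (limma adjusted p of 0.281), while that of miR-29b-2-5p to the same guide differed by −0.04 ± 0.16 (0.96). That guide is counted for both loci together, so neither value is the arm ratio of a single hairpin. The level of miR-29b-1-5p, these ratios and the locus share below rest on the same 12 to 78 miR-29b-1-5p reads per library. They are not separate results. miR-29a had 10.96, 11.4, 27.0 and 19.5 passenger reads per 10000 guide reads in ALAS12-KO and 10.3, 12.2 and 11.6 in WT. Only ALAS12-KO replicates 3 and 4 were above WT, and the difference of 0.50 ± 0.34 did not pass (limma adjusted p = 0.701). miR-29c had 43.2, 42.8, 48.9 and 52.4 in ALAS12-KO and 44.7, 42.6 and 46.4 in WT, with a difference of 0.07 ± 0.13 (limma adjusted p = 0.918). Over all 145 pairs limma called 0 (0%), with 10 (6.9%) at unadjusted p under 0.05, the miR-29b pair among them. The groups did not overlap for 1 of the 3 family pairs, miR-29b, and for 10.3% of all pairs (4.83% with the passenger relatively higher in ALAS12-KO), and the mean difference was positive for 3 of 3 family pairs and for 46.2% of all pairs.

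**Figure D4:**
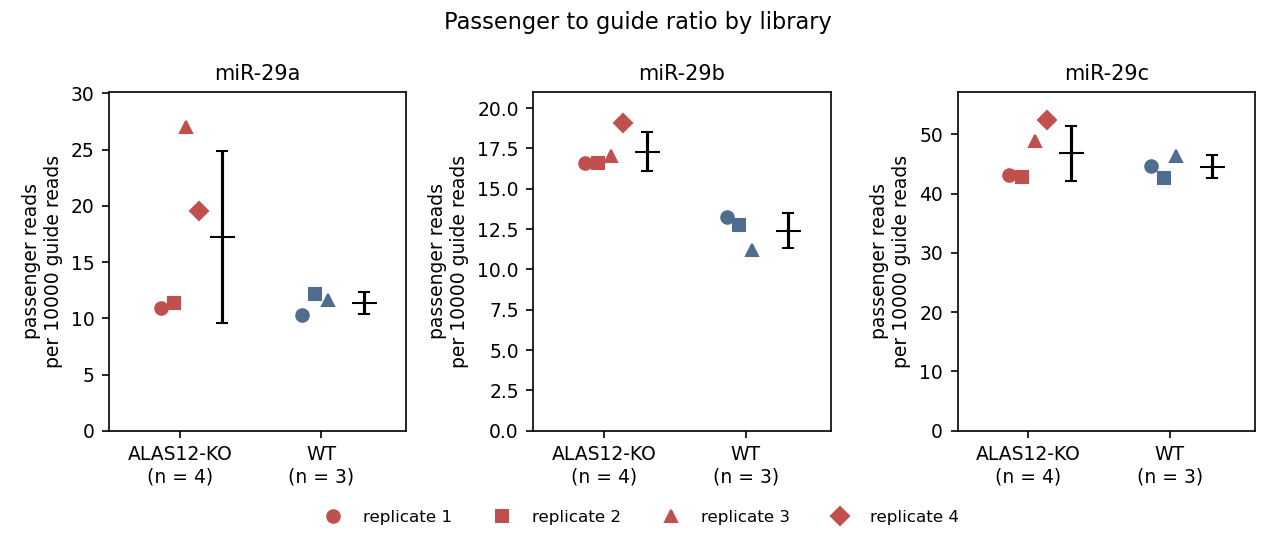
Passenger reads per 10000 guide reads by library for miR-29a, miR-29b (both passengers summed) and miR-29c (linear axes from 0, each with its own range). Points are libraries (red, ALAS12-KO; blue, WT) with the mean ± SD beside each group; for miR-29b the ALAS12-KO libraries (16.6 to 19.1) lie above the WT libraries (11.2 to 13.3).

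The 2 miR-29b loci can be set side by side only through their passengers, which were about 15.2 per 10000 miR-29b guide reads. Whether both hairpins keep their passenger alike was not tested, so the shares below are those of passenger reads and not of the guide. miR-29b-1-5p, of the chromosome 6 locus, made up 54.3%, 63.1%, 50.0% and 56.5% of the miR-29b passenger reads in ALAS12-KO replicates 1 to 4, from 84 to 146 reads per library. It made up 47.9%, 35.3% and 26.7% in WT replicates 1 to 3, from 121, 153 and 45 reads. Every ALAS12-KO library was above every WT library, with ALAS12-KO replicate 3 and WT replicate 1 nearest to each other. Their exact (Clopper-Pearson) 95% intervals were 41.6% to 58.4% and 38.8% to 57.2%, and cover counting error only. WT replicate 3, the lowest, had 12 of 45 reads and an interval of 14.6% to 41.9%.

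The mean share was 56.0% ± 5.46 (SD, n = 4) in ALAS12-KO and 36.6% ± 10.7 (SD, n = 3) in WT, a difference of 19.3 percentage points. The two-sided exact permutation p was 0.0286, the smallest that 35 splits allow. Adjusted by Benjamini-Hochberg with the test of the miR-29a share it was 0.0571. At this size even full separation cannot pass 0.05 after adjustment unless other tests are as extreme, so the adjusted p was bound by the design. Across the 8 pairs of arms whose names differ only by locus number, the groups did not overlap for 2 (25%), miR-29b and miR-30c, both with an exact permutation p of 0.0286 and a p of 0.114 adjusted over the 8. The miR-29b difference was the largest of the 8 in percentage points, ahead of 2.60 for miR-30c. Points are not directly comparable across pairs, since a share near either end has less room to move. Mean WT shares were 36.6% for miR-29b, 6.45% for miR-30c, 2.06% for let-7c, 1.33% for miR-125b and 95.9% for miR-16. At mean WT shares of 21.0%, 25.5% and 81.9%, let-7f, miR-450a and miR-181a differed by −0.764, 1.59 and 0.137 points. The lowest reads per library were 45 for miR-29b, 550 for miR-30c and 16 for miR-450a. Without WT replicate 3 the miR-29b difference was 14.4 percentage points.

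**Figure D5:**
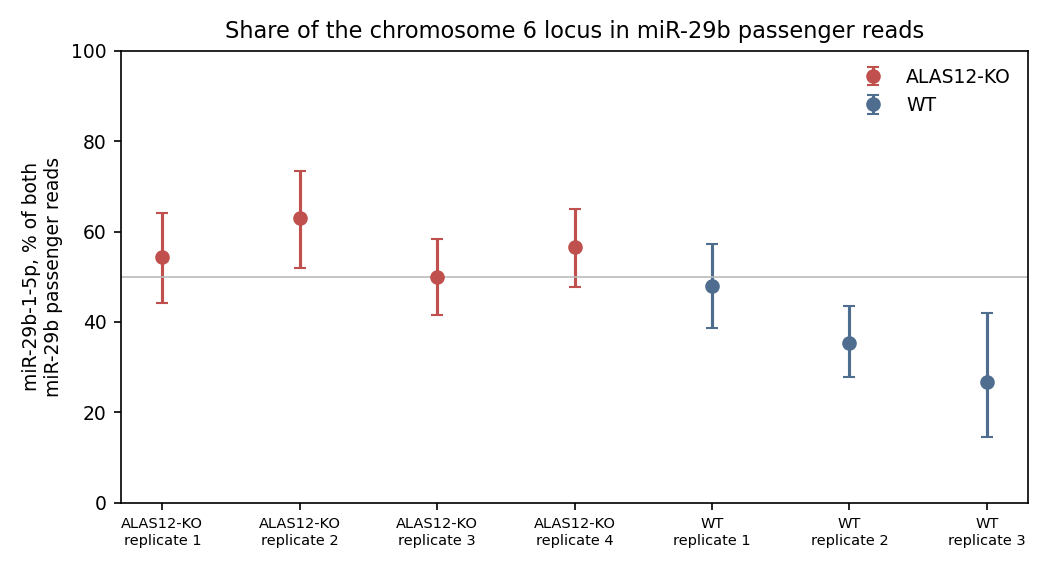
Share of miR-29b-1-5p in the reads of both miR-29b passengers (percent, linear axis from 0 to 100) in each library, ALAS12-KO in red and WT in blue. The grey line marks equal reads from both loci; bars are exact 95% binomial intervals and cover counting error only; the ALAS12-KO libraries run from 50.0% to 63.1% and the WT libraries from 26.7% to 47.9%, with the intervals of ALAS12-KO replicate 3 and WT replicate 1 overlapping.

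Markers of other liver cells had lower summed CPM in all 4 ALAS12-KO libraries than in any WT library for cholangiocytes and red cells, and overlapped for mesenchymal cells, endothelium and leukocytes. Of single miRNAs, 15.3% of the 450 lay wholly lower in ALAS12-KO on CPM. In bulk libraries fewer cells of a type and less RNA per cell cannot be told apart. The 9 listed mesenchymal miRNAs, among them miR-199a and miR-214 of stellate cells, summed to 1716 to 6303 CPM in ALAS12-KO and 4582 to 7693 CPM in WT. With TMM, 8 of 9 log2 fold changes were negative. The positive one was that of miR-214-3p, at 0.39 ± 0.53 (SE), with means of 9.01 CPM in ALAS12-KO and 7.29 CPM in WT. miR-214-5p stood at −0.46 ± 0.35. The 2 endothelial miRNAs summed to 10959 to 36485 CPM in ALAS12-KO and 35562 to 52472 CPM in WT, and the 5 leukocyte miRNAs to 2238 to 7212 CPM and 5726 to 7564 CPM. The 5 cholangiocyte miRNAs summed to 54.4 to 105 CPM in ALAS12-KO and 139 to 243 CPM in WT, and the 4 red cell miRNAs to 9.11 to 20.3 CPM and 20.5 to 27.2 CPM. With TMM, log2 fold changes were negative for 2 of 2 endothelial, 5 of 5 leukocyte, 5 of 5 cholangiocyte and 4 of 4 red cell miRNAs. They were positive for 7 of 7 hepatocyte miRNAs and for 56% of all 450. On TMM-scaled CPM the red cell sums overlapped, at 11.3 to 19.7 in ALAS12-KO and 18.9 to 26.8 in WT. The endothelial sums did not overlap on that scale, at 13590 to 32965 in ALAS12-KO and 34965 to 46551 in WT. Of single miRNAs, 9.33% of the 450 lay wholly lower in ALAS12-KO there. None of these lists had a marker at 0 in all libraries, and edgeR with TMM called 0 of their members. At unadjusted p under 0.05, 3 of 5 cholangiocyte, 2 of 4 red cell, 1 of 2 endothelial, 1 of 5 leukocyte and 1 of 9 mesenchymal miRNAs were lower, where 8.44% of the 450 were. DESeq2 called miR-200a-3p, miR-200b-3p and miR-429-3p of the cholangiocyte list and miR-144-3p of the red cell list, all lower. With no filter on low counts, where edgeR called 13 of 1302 miRNAs (0.998%), the same 3 cholangiocyte miRNAs and miR-150-5p of the leukocyte list were called. ALAS12-KO replicates 3 and 4, in which miR-29a-5p was high, held more mesenchymal signal (6303 and 4556 CPM) than replicates 1 and 2 (1716 and 3845 CPM). WT replicates 1 to 3 held 6628, 4582 and 7693 CPM of it, with miR-29a-5p at 20.6, 23.8 and 22.0 CPM. On TMM-scaled CPM, ALAS12-KO replicates 2 and 4 held 4374 and 4438 of it, with miR-29a-5p at 25.6 and 35.7. The part of other liver cells in the miR-29 values was not tested.

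Other miRNAs linked to liver fibrosis had log2 fold changes of both signs, with none past the adjusted threshold in edgeR with TMM. The lists share miRNAs with the marker lists above and were chosen with these data known. Of 10 listed as higher in fibrotic liver, 0 were called, 6 were positive and 3 stood at unadjusted p under 0.05, all higher, where 56% of all 450 were positive and 10.2% were higher at that p. The 3 were miR-34a-5p and both arms of the same hairpin, miR-21a-5p and miR-21a-3p. The list had a median log2 fold change of 0.34 with TMM (0.20 with library totals) against 0.06 and −0.12 over all 450. Its sums did not overlap, at 45696 to 82135 CPM in ALAS12-KO and 38449 to 45577 CPM in WT. ALAS12-KO replicate 2 and WT replicate 1 almost met, at 45696 and 45577 CPM. Of single miRNAs, 5.33% of the 450 lay wholly higher in ALAS12-KO on CPM. The sums were led by miR-21a-5p, at 59318 ± 15569 CPM in ALAS12-KO (SD, n = 4) and 38687 ± 3228 CPM in WT (SD, n = 3). The log2 fold change of miR-21a-5p was 0.78 ± 0.14 (SE) with TMM. miR-34a-5p, induced by p53, had 2269 ± 95.1 CPM in ALAS12-KO (SD, n = 4) and 1211 ± 232 CPM in WT (SD, n = 3). miR-221-3p, raised in activated stellate cells, stood at a log2 fold change of 0.39 ± 0.20 (SE), and the stellate cell miRNA miR-199a-5p at −0.63 ± 0.31. The others shared with the mesenchymal list, miR-199a-3p, miR-199b-3p and miR-214-3p, stood at −0.48 ± 0.30, −0.48 ± 0.31 and 0.39 ± 0.53. Of 10 listed as restraining collagen or stellate cells, 9 passed the filter and 0 were called, with 6 positive, 4 higher and 1 lower at unadjusted p under 0.05, where 8.44% of the 450 were lower at that p. The median of this second list was 0.35 (0.15 with library totals). Its sums overlapped, at 585663 to 665313 CPM in ALAS12-KO and 616087 to 640127 CPM in WT. In this list miR-101a-3p, a repressor of the methyltransferase Ezh2, stood at 0.39 ± 0.14 on the log2 scale, and miR-19b-3p of the miR-17-92 cluster at −0.25 ± 0.15. The adjusted p-values of edgeR with TMM in both lists were 0.103 or higher. Other settings called some: miR-34a-5p with library totals, miR-21a-5p, miR-34a-5p, miR-30a-5p and miR-378a-3p with DESeq2, and miR-21a-5p, miR-34a-5p, miR-378a-3p and miR-150-5p with no filter. Of these, miR-150-5p was lower in ALAS12-KO and the others higher.

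Members were also compared by how they varied over the libraries. Pearson's r of the TMM-scaled log2 CPM over the 7 libraries, which share each library's scaling factor, was 0.93 between miR-29a-3p and miR-29c-3p and 0.86 between miR-29a-3p and miR-29b-3p. On CPM of miRNA reads these were 0.40 and 0.61. miR-29a-5p and its own guide miR-29a-3p had an r of −0.26 on the TMM scale and −0.58 on CPM. The miRNAs outside the family most like miR-29a-3p among 217 with a mean of at least 10 CPM were miR-122-5p (r = 0.97), let-7f-2-3p (0.96) and miR-148b-3p (0.96). Those most like miR-29b-3p were miR-128-3p (0.96), let-7g-3p (0.94) and miR-192-3p (0.90), and those most like miR-29c-3p were miR-122-5p (0.96), miR-130a-3p (0.96) and miR-128-3p (0.96). miR-29a-5p was most like miR-28a-5p (0.97), miR-423-3p (0.96) and miR-320-3p (0.96), and miR-29c-5p most like miR-25-3p (0.97), miR-21a-3p (0.97) and let-7a-5p (0.96). These r describe 7 libraries of both genotypes pooled, and group differences and scaling factors enter them.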

How the data were processed

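The authors deposited 1 table per library of raw read counts per mature miRNA, whole numbers with no normalisation, as the values show. Per the submitters' processing notes, cutadapt, limma, mm10 and hg38 were used. Neither a version nor a role is listed for them, and the choice of aligner, counter and strand setting is not given in the sources used here. Entries naming no miRNA were kept apart from library sizes and fits (reads outside any miRNA were 50.9% to 73.7% of all reads, and the entry for non-unique alignments was 0 in all 7 libraries). Control RNAs were added to the samples per the labels' protocols and are not analysed here, so levels are relative to all miRNAs.

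Samples were grouped by genotype label. Differences were computed with edgeR 4.0.16 (R 4.3.3; robust quasi-likelihood fit, TMM, filterByExpr with a minimum count of 10) and arm ratios with limma 3.58.1 on log2 ratios with 0.5 added per arm, both adjusted by Benjamini-Hochberg and called at 0.05. DESeq2 1.42.0, limma-voom, other scalings and filters, a replicate block and leaving out libraries were alternatives. The scripts were tested on simulated data. No library looked like a copy of another: chi-square over degrees of freedom lay between 112 and 1288 within groups. The members and lists were chosen with earlier results of these data known. The text names the 7 members, miRNAs of the lists and, for members with a mean of at least 10 CPM, the 3 most alike. Comparison with the 8 locus pairs was added after the data were seen. Sequences came from RefSeq (GRCm38.p6) and GENCODE M21.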

Additional observations from a re-analysis of the deposited data

How the results depend on the processing

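No member passed the adjusted threshold under any scaling, filter, tool or left-out library tried. miR-29b-1-5p stayed positive in 17 alternatives (0.76 to 1.33, lowest adjusted p 0.0527, DESeq2) and miR-29a-5p in 18 (0.41 to 0.76). The log2 fold changes of the guides changed sign; the cause was not tested. With library totals, miR-29a-3p stood at −0.062, miR-29b-3p at −0.18, miR-29c-3p at −0.091 and miR-29c-5p at −0.023. With totals without miR-122-5p the same 4 stood at −0.060, −0.18, −0.087 and −0.025. With all aligned reads the 3 guides stood at −0.018, −0.14 and −0.044, and with a mean CPM of at least 10 at −0.014, −0.13 and −0.040. miR-29b-3p alone turned negative with DESeq2 size factors in edgeR (−0.0084), DESeq2 (−0.0084), upper-quartile factors (−0.077), limma-voom (−0.014), no filter (−0.040) and, chosen after seeing the data, TMM without miR-122-5p (−0.0029). Leaving out 1 library gave −0.091 to 0.059 for miR-29b-3p, −0.041 to 0.16 for miR-29c-3p and −0.14 to 0.060 for miR-29b-2-5p.

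Over all miRNAs, 2 were called with library totals (miR-30e-5p and miR-34a-5p), 21 with DESeq2, 13 with no filter, and 0 to 1 when 1 library was left out (miR-21a-5p without ALAS12-KO replicate 2). Of miRNAs at unadjusted p under 0.05, 54.8% were higher in ALAS12-KO with TMM, 32.9% with upper-quartile factors, 27.3% with library totals, 38.8% with a mean CPM of at least 10, 21.3% with totals without miR-122-5p and 20% with all aligned reads. The log2 difference of the summed guides was −0.088 on CPM, 0.094 on TMM-scaled CPM and −0.0076 on CPM of all aligned reads. The miR-29b locus difference was 14.4 to 25.0 percentage points with 1 library left out, with exact permutation p of 0.0667 or 0.1, the smallest those sizes allow. The log2 passenger to guide difference of miR-29b was 0.41 to 0.53 over 10 alternatives and passed in none. Its limma adjusted p ran from 0.0814, with a variance trend in the fit, to 0.897 with the replicate block.

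Same-numbered libraries deviated together with r of 0.14, −0.48 and 0.15, so the numbers were not taken as pairs. With the replicate block, 0 miRNAs were called, as without it, the locus difference was 19.2 percentage points (exact permutation p = 0.25, the smallest 3 pairs allow) and miR-29b-2-5p stood at 0.00092. The miR-29b passengers had 12 to 99 reads per library, which limits the precision of the locus shares.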
